A study of Rattus norvegicus with 4 samples.

Results

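The 9 genes described here make, export or hold back glucose in hepatocytes, and were taken by symbol from the 31457 genes of the deposited table, across its 4 liver libraries. They are G6pc (gene ID 25634), Slc37a4 (29573), Slc2a2 (25351), Pck1 (362282), Pck2 (361042), Pcx (25104), Fbp1 (24362), Gckr (25658) and Pklr (24651). The table lists 8 of them under these symbols and 1, Pcx, under the symbol Pc with Pcx as its alias. All 4 libraries are poly(A) RNA from livers of Lewis (RT1L) rats, 1 library per group, sequenced on an Illumina MiSeq. The naive liver is a control with no operation or agent in its label. The other 3 carry the prefix PH, for partial hepatectomy (part of the liver is cut away and the remnant regrows), and differ in what the rat then received by vein: saline (the saline liver), ASCs-siRNC (the siRNC liver) or ASCs-miR27b (the miR-27b liver). The labels spell out neither ASCs, taken here for adipose-derived stem cells, nor siRNC. For the rats' age and feeding state, the hour of collection and the time since surgery, nothing was given in the sources used here.

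Gluconeogenesis is the synthesis of glucose from lactate, alanine and glycerol, and in the fasting body it takes place mostly in the liver. Pyruvate carboxylase and phosphoenolpyruvate carboxykinase carry pyruvate past the irreversible pyruvate kinase step, fructose-1,6-bisphosphatase reverses phosphofructokinase, and glucose-6-phosphatase releases free glucose. Glucagon and glucocorticoids raise transcription of Pck1 and G6pc, and insulin lowers it. After partial hepatectomy the remnant has to supply glucose for the whole body while it regrows.

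G6pc and Pck1 were the members with the widest spread, so the 250 bases before their annotated starts are shown, with capitals on the letters that match a searched motif. They come from RefSeq, build GRCr8, plus strand, at chr10:86807409-86807658 for G6pc (named G6pc1 there) and chr3:182348322-182348571 for Pck1, whereas the libraries were processed on rn5.
G6pc: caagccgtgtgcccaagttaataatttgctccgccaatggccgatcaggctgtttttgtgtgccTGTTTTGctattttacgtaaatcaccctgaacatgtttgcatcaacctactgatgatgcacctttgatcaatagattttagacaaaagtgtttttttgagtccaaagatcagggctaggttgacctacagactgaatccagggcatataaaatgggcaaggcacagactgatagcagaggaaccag
Pck1: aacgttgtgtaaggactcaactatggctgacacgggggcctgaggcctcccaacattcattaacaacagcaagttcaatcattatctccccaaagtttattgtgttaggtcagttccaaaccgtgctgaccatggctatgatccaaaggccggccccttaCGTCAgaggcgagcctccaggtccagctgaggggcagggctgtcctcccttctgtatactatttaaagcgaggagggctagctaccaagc
Short motifs were searched on both strands, and of the 9 members 8 had a promoter entry (all but Pcx). In G6pc the capitals mark TGTTTTG, a forkhead or insulin-response word, from position -186 to -180 before the start. This word lies in 5.46% of all 33465 promoter windows of this length. In Pck1 they mark CGTCA, the reverse strand of the cAMP-response core TGACG, from -90 to -86. TGACG lies in 18.2% of all windows and in those of 3 members, Pck1, Gckr and Slc37a4. The glucocorticoid receptor word AGAACA (17.5% of windows) was found in Gckr and Slc2a2, and TGGCA (41.4%), not capitalised here, in Fbp1, Pklr and Slc2a2. None of the 8 held the full cAMP-response element TGACGTCA (1.59% of windows), which contains TGACG, or the forkhead word GTAAACA (3.21%). Nor did any hold the E-box CACGTG (5.59%), the D-box TTATGTAA (0.828%), the STAT word TTCNNNGAA (7.67%) or the HNF4 word CAAAGTCCA (0.338%). A match shows letters only, and no match shows only that these letters are not in this window.

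The agent named in the 1 treated group is miR-27b, and its mature forms in RefSeq are shown because they define that group, with the seed (bases 2 to 8) in capitals. The labels do not say which arm the cells carried.
rno-miR-27b-3p: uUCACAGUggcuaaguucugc
rno-miR-27b-5p: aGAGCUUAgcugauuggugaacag

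The deposited values are log2 values relative to a baseline of each gene near its median library. They give the difference between libraries within a gene, not the level of the gene, so levels of different members cannot be compared. From the rounding of the stored values, 8 members were placed in the higher of 2 level classes, whose bottom in normalized reads is 16 times that of the lower class, with a probability of 0.801 for G6pc and 0.663 for each of the other 7. Pck2 is lower, and its values are given by 116.0 reads in the naive, 71.9 in the saline, 66.9 with siRNC and 79.5 with miR-27b. All 9 passed the filter on low levels, which kept the 8854 genes of both classes, the lower one starting at 16 normalized reads in every library. Size factors of the libraries ran from 0.956 to 1.039. As every group is a single library, differences between livers are given without a test and without a measure of the spread between rats. A gene is called apart at 2-fold or more. The 95% intervals given with log2 folds are exact (Clopper-Pearson) and cover counting error only. They were computed from the reads of Pck2 and, for the other members, with the lowest library at the bottom of the class. That is where they are widest if the class is right. Where a member has fewer reads than its class holds, its true interval is wider than the one given.

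All 17 fixed plasma protein genes of hepatocytes were kept. None was 2-fold apart in the saline-naive, siRNC-saline, miR-27b-siRNC or miR-27b-saline comparison, and their medians lay between -0.03 and 0.19. Against naive, 4 of the 17 (Hpx, Fga, Fgb and Fgg, 1.29 to 1.46) were 2-fold higher in the miR-27b liver, or 23.5%, against 9.49% of all kept genes. Markers of other cells differed from naive. All 13 kept macrophage and Kupffer cell markers were at least 2-fold higher in the saline than in the naive liver (median 1.28), as were all 4 kept erythroid genes (median 2.35). Of all kept genes 7.51% were 2-fold apart there. With a pseudocount (normalized reads added before the log2) of 5, 11 of the 13 macrophage markers were apart, and with one of 20, 7 were. For this, here and for the lists below, the lowest library of each gene was placed at the bottom of its level class. Whether a call is lost with a pseudocount thus follows from class and folds, not from the measured level of the gene. Genes with more reads than that would move less. Between hepatectomised livers the medians of the macrophage markers were -0.18 (siRNC against saline) and 0.38 (miR-27b against siRNC), with no gene 2-fold apart. Stellate and fibroblast markers did differ there: 3 of 8 were 2-fold higher in the siRNC than in the saline liver (median 0.64) and 3 of 8 were 2-fold lower in the miR-27b than in the siRNC liver (median -0.05). Of all kept genes 2.79% and 3.67% were 2-fold apart. The markers were Col1a1, Col1a2 and Dcn in both, and with a pseudocount of 20 only the calls of Col1a1 were kept (2.38 and -2.19). Endothelial medians were -0.15 and 0.26 in these comparisons, with 1 of 11 genes 2-fold lower and 1 higher. Both calls were of Vwf and were lost with a pseudocount of 20 (-0.59 and 0.69). Fat cells also express Pck1. Of the 8 fat cell and adipose stromal genes, Adipoq, Plin1 and Lep were listed at 0 in all 4 libraries, 1 was below the filter and 4 were kept. The medians of the kept genes were 0.66 for saline against naive, 0.15 for siRNC against saline and 0.40 for miR-27b against siRNC. Among them Fabp4, a fatty acid binding protein, was 2.97 higher in the saline than in the naive liver and 1.13 higher in the miR-27b than in the siRNC liver. Cfd was 1.26 higher in the saline than in the naive liver, a call lost with a pseudocount of 20 (0.695). The neutrophil markers were all below the filter or at 0. Summed levels cannot be formed from within-gene differences. In bulk tissue fewer cells of a type and less RNA per cell cannot be told apart, and the part of cell makeup in the differences below was not tested.

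In outline, G6pc and Pck1 were lowest in the siRNC liver, and the other 7 members stayed within 2-fold across all 4 livers. The siRNC liver was the lowest of the 4 for 6 of 9 members (G6pc, Slc37a4, Pck1, Pck2, Pcx and Gckr) and the highest for none. It lay below the next liver by 1.65 for G6pc, 0.87 for Pck1, 0.18 for Gckr, 0.10 for Slc37a4, 0.06 for Pck2 and 0.03 for Pcx. Over all kept genes, it was the lowest for 22.7% and the highest for 21.2%. The naive liver was the highest for 4 members (G6pc, Pck2, Pcx and Gckr), against 33.1% of all kept genes. The median range over the 4 livers was 0.46 for the members.

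**Figure D1:**
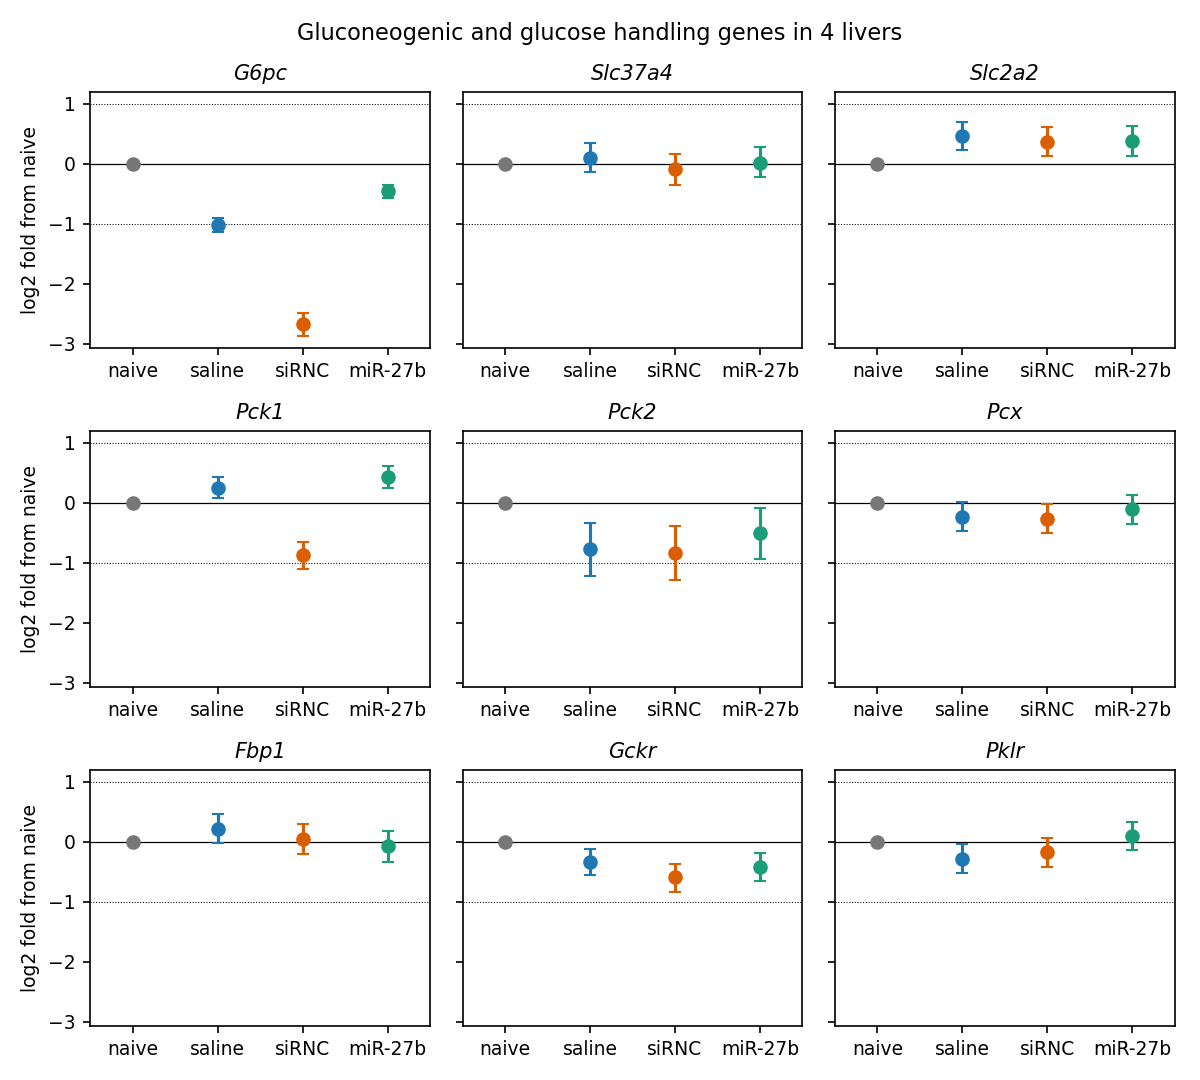
Log2 fold of each member from the naive library (grey, set to 0), 1 point for each other library; bars are 95% counting intervals and dotted lines mark 2-fold. G6pc is at -1.02, -2.67 and -0.46 and Pck1 at 0.25, -0.87 and 0.43, while the points of the other 7 members lie between the dotted lines.

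The last step of glucose release showed the largest differences. G6pc encodes the catalytic subunit of glucose-6-phosphatase, which frees glucose from glucose 6-phosphate in the endoplasmic reticulum. Its values were 0.54 in the naive, -0.48 in the saline, -2.14 with siRNC and 0.07 with miR-27b. The naive liver was highest, the siRNC liver lay far below the rest, and the miR-27b liver lay between naive and saline. The log2 fold of saline against naive was -1.02 (95% interval -1.14 to -0.90), or 2.03-fold lower. The siRNC liver was 3.15-fold lower than the saline liver (log2 fold -1.65, 95% interval -1.86 to -1.45), and 20 of 8854 kept genes had a lower fold. The miR-27b liver was 4.63-fold higher than the siRNC liver (log2 fold 2.21, 95% interval 2.02 to 2.42), and 15 kept genes had a higher one. Both of these folds use the 1 siRNC library. Between the other libraries, the miR-27b liver was 1.47-fold above the saline liver (log2 fold 0.56, 95% interval 0.43 to 0.69) and 1.38-fold below the naive liver (log2 fold -0.46). The G6pc range of 2.67 was reached by 0.757% of kept genes.

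Slc37a4 encodes the transporter that brings glucose 6-phosphate into the endoplasmic reticulum to this phosphatase, and Slc2a2 encodes GLUT2, the main glucose carrier of the hepatocyte membrane. Slc37a4 had 0.00 in the naive, 0.10 in the saline, -0.10 with siRNC and 0.02 with miR-27b. Its range of 0.19 was the narrowest of the 9, and all 6 pairwise intervals included 0. Slc2a2 had -0.37 in the naive, 0.09 in the saline, 0.00 with siRNC and 0.01 with miR-27b. The 3 hepatectomised livers lay together above the naive liver, by 0.46 (95% interval 0.23 to 0.70) in the saline, 0.37 (0.13 to 0.61) with siRNC and 0.38 (0.13 to 0.62) with miR-27b, all on the log2 scale. These 3 folds share the naive library.

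The entry steps of gluconeogenesis differed among themselves. Pck1 encodes the cytosolic phosphoenolpyruvate carboxykinase. Its values were 0.00 in the naive, 0.25 in the saline, -0.87 with siRNC and 0.43 with miR-27b. As for G6pc the siRNC liver was lowest, but the naive liver lay below the saline and miR-27b livers. The siRNC liver was 2.18-fold lower than the saline liver (log2 fold -1.12, 95% interval -1.34 to -0.91), with 77 kept genes lower still. The miR-27b liver was 2.46-fold higher than the siRNC liver (log2 fold 1.30, 95% interval 1.09 to 1.52), with 86 kept genes higher. Saline against naive was 0.25 (95% interval 0.07 to 0.43) and miR-27b against saline 0.18 (0.01 to 0.35).

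Pck2 encodes the mitochondrial enzyme of the same reaction. Its values were 0.73 in the naive, -0.05 in the saline, -0.11 with siRNC and 0.21 with miR-27b. The naive liver stood above all 3 hepatectomised livers. The log2 folds from naive were -0.78 (95% interval -1.22 to -0.34) in the saline, -0.84 (-1.29 to -0.39) with siRNC and -0.51 (-0.93 to -0.08) with miR-27b. Among the hepatectomised livers all Pck2 intervals included 0. The lowest library of Pck2 and that of Pck1 were therefore the same, but the log2 fold of siRNC against saline was -0.06 for Pck2 and -1.12 for Pck1.

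Pcx encodes pyruvate carboxylase, which makes oxaloacetate from pyruvate in mitochondria. Its values were 0.11 in the naive, -0.12 in the saline, -0.15 with siRNC and 0.00 with miR-27b, and 1 interval excluded 0, that of siRNC against naive (log2 fold -0.26, 95% interval -0.51 to -0.02). Fbp1 encodes the liver fructose-1,6-bisphosphatase. It had 0.00 in the naive, 0.22 in the saline, 0.04 with siRNC and -0.08 with miR-27b. Its 1 interval that excluded 0 was that of miR-27b against saline (log2 fold -0.30, 95% interval -0.54 to -0.05). These genes differed by at most 0.30 across the 4 livers, a range that 80.0% of kept genes reached or passed.

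The members on the glycolytic side differed little. Gckr encodes a liver regulatory protein that restrains the uptake of glucose into glycolysis. Its values were 0.34 in the naive, 0.00 in the saline, -0.25 with siRNC and -0.08 with miR-27b. It was lower than naive in the saline (-0.34, 95% interval -0.56 to -0.12), the siRNC (-0.60, -0.83 to -0.37) and the miR-27b liver (-0.42, -0.65 to -0.19). Pklr encodes liver pyruvate kinase, which opposes the Pcx and Pck steps. It had 0.00 in the naive, -0.29 in the saline, -0.18 with siRNC and 0.09 with miR-27b. The miR-27b liver was highest and the saline liver lowest, 0.38 apart (95% interval 0.14 to 0.62).

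Counted by comparison, 1 of 9 members was 2-fold apart between the saline and naive livers (G6pc, lower), where 7.51% of all kept genes were, and 3.09% were lower. Between the siRNC and saline livers 2 of 9 were (G6pc and Pck1, both lower), against 2.79% of kept genes in either direction and 1.22% in the lower. Between the miR-27b and siRNC livers the same 2 members were apart, both higher, against 3.67% in either direction and 2.06% in the higher. Between the miR-27b and saline livers none was, against 2.72%. From naive, 1 member was apart in the siRNC liver (G6pc, lower; background 7.28%, and 2.89% lower) and none in the miR-27b liver (9.49%). With 9 members, the count of 1 between saline and naive is near its background.

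The medians of the members were -0.23 (saline against naive), -0.18 (siRNC against saline), 0.18 (miR-27b against siRNC) and 0.12 (miR-27b against saline), where the medians of all kept genes lay between -0.02 and 0.00. In the siRNC liver 8 of 9 members were below the saline liver, all but Pklr, and 51.1% of kept genes were. Of these 8, only G6pc, Pck1 and Gckr had intervals that excluded 0. In the miR-27b liver 8 of 9 were above the siRNC liver, all but Fbp1, and 50.3% of kept genes were. Of those 8, only G6pc, Pck1 and Pklr had intervals that excluded 0. Both counts share the 1 siRNC library. The hepatocyte plasma protein genes had a median of 0.19 in miR-27b against siRNC. Recentring took off the median deposited value of these genes in each library, which moved the folds by less than 0.19. After it, 6 of 9 members were above the siRNC liver, with Slc37a4 at -0.01 and Slc2a2 at -0.11. The median of the members was then 0.05, and G6pc and Pck1 were at 2.09 and 1.18. Pcx and Gckr stayed above the siRNC liver, but their folds before recentring (0.15 and 0.18) were smaller than 0.19.

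**Figure D2:**
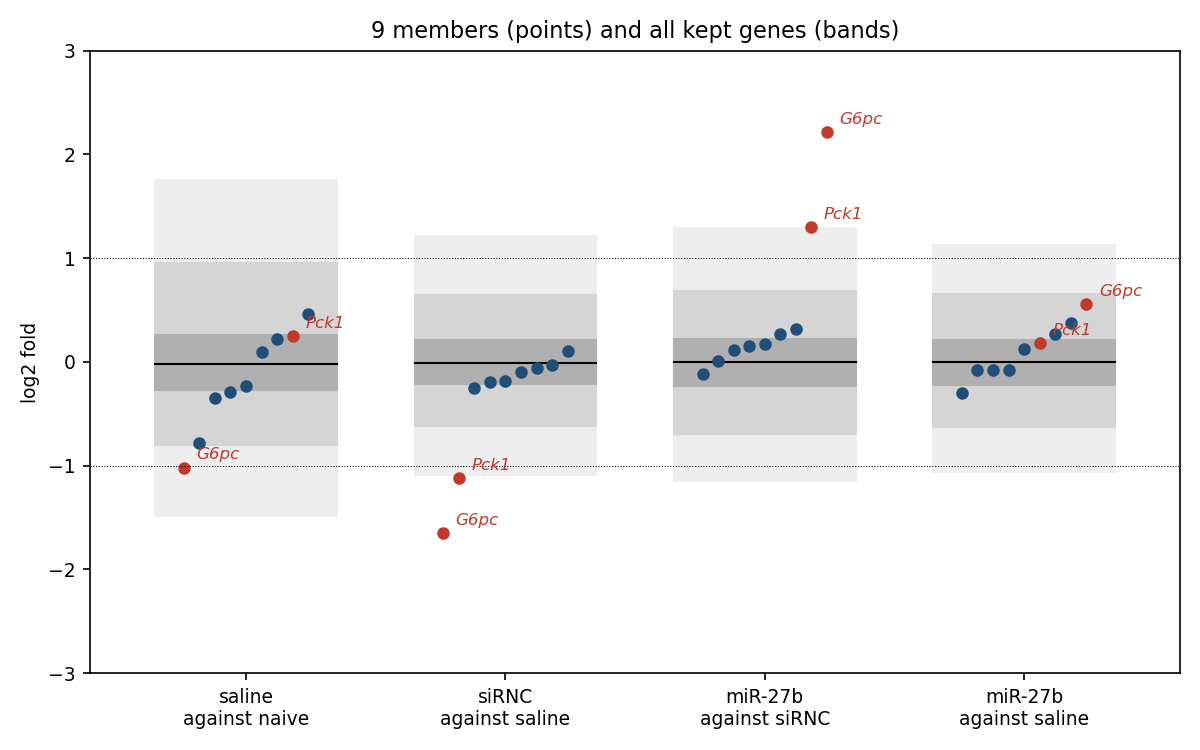
Log2 fold of the 9 members (points, ordered within each comparison; G6pc and Pck1 in red) in 4 comparisons, over bands that hold the middle 50%, 90% and 98% of 8854 kept genes; the black line is their median and dotted lines mark 2-fold. G6pc at -1.65 and Pck1 at -1.12 lie below the bands in siRNC against saline and at 2.21 and 1.30 above them (Pck1 only just) in miR-27b against siRNC.

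Ratios of 2 genes within a library do not depend on how the libraries were scaled. With the naive liver set to 0, the log2 ratio of cytosolic to mitochondrial carboxykinase, Pck1 to Pck2, was 1.03 in the saline, -0.04 with siRNC and 0.94 with miR-27b. The ratio of G6pc to its transporter partner Slc37a4 was -1.12, -2.58 and -0.48 in the same order. Pck1 to Pklr, whose steps oppose each other, stood at 0.53, -0.70 and 0.34. Fbp1 to the opposing liver phosphofructokinase gene Pfkl stayed between -0.11 and 0.04.

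**Figure D3:**
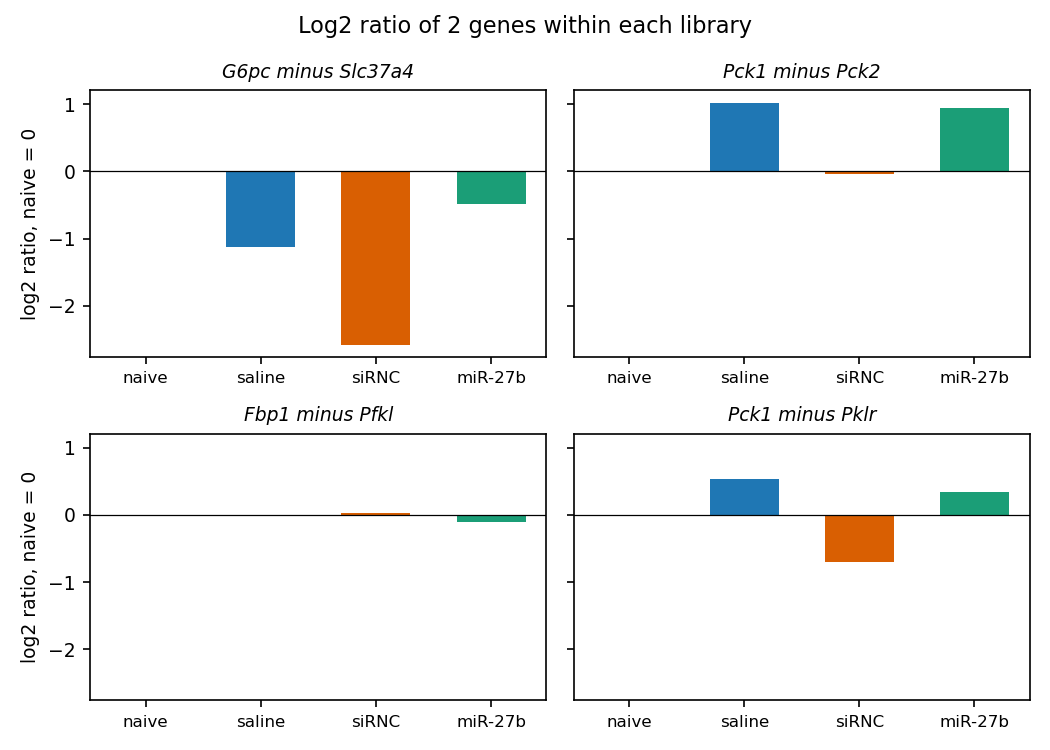
Log2 ratio of 2 genes within each library, 1 bar per library, with the naive library set to 0; pairs are opposing or partner steps. The ratio of G6pc to Slc37a4 is -1.12 for saline, -2.58 for siRNC and -0.48 for miR-27b, and that of Fbp1 to Pfkl stays near 0.

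Of the wider glycolytic list, 16 of 25 genes found in the table were kept. The medians were 0.13 (saline against naive), -0.09 (siRNC against saline), 0.12 (miR-27b against siRNC) and 0.09 (miR-27b against saline). Hk1, a hexokinase of most tissues, was the 1 gene 2-fold higher in the miR-27b than in the siRNC liver (1.20), a call lost with a pseudocount of 5 (0.99). Mlxipl, which encodes the carbohydrate-response factor ChREBP, was below naive in all 3 hepatectomised livers (-0.83, -0.80 and -1.02). Hk1 and Mlxipl are in the lower level class, where the counting SD of a log2 fold can reach 0.51, against 0.13 at the bottom of the higher class.

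Genes that supply precursors had 28 of 29 kept. The median was -0.07 for saline against naive (13 of 28 above 0), -0.03 for siRNC against saline (12 of 28), 0.05 for miR-27b against siRNC (18 of 28) and 0.12 for miR-27b against saline (20 of 28). Sds, serine dehydratase, which turns serine into pyruvate, was the 1 gene 2-fold higher in the saline than in the naive liver (2.70) and the 1 gene 2-fold lower in the miR-27b than in the saline liver (-1.12). Got1, the cytosolic aspartate aminotransferase of the malate-aspartate shuttle, and Pdk4, the kinase that shuts pyruvate dehydrogenase, were the 2 genes 2-fold lower in the siRNC than in the saline liver (-1.21 and -1.0) and the 2 that were 2-fold higher in the miR-27b than in the siRNC liver (1.26 and 1.32). The lower call of Pdk4 rests on the threshold itself: it is lost with pseudocounts of 5 and 20 and with recentring on hepatocyte genes (-0.99, -0.95 and -0.997). Got1 had -0.05 in the naive, 0.66 in the saline, -0.55 with siRNC and 0.71 with miR-27b, with the naive liver between the siRNC liver and the other two. Pdk4 had -0.63, 0.00, -1.0 and 0.32 in the same order. Tat, tyrosine aminotransferase, differed by at most 0.64. The share of the list 2-fold apart was 3.57% in saline against naive, where 7.51% of all kept genes were. It was 7.14% in siRNC against saline (2.79% of kept genes) and in miR-27b against siRNC (3.67%), and 3.57% in miR-27b against saline (2.72%).

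Regulators of these genes went both ways, with 20 of 24 kept. Those named below are in the lower level class, all but Stat3. In the saline against the naive liver 4 of the 20 were 2-fold higher and none lower: Onecut1 (2.68), Ppargc1a (1.83), Trib3 (1.62) and Stat3 (1.29). Ppargc1a encodes PGC-1 alpha, a coactivator of Pck1 and G6pc transcription. It had -1.10 in the naive, 0.73 in the saline, 0.00 with siRNC and 1.85 with miR-27b. It was lowest in the naive liver, where G6pc was highest, and a link between these genes was not tested. Foxo1, a forkhead activator that insulin signalling keeps out of the nucleus, varied by 0.42 in all. Foxo3 was 1.57 higher in the siRNC than in the saline liver, the 1 regulator 2-fold higher there, and Trib3 was the 1 that was lower (-1.15). In the miR-27b against the siRNC liver Ppargc1a (1.85) and Stat3 (1.03) were 2-fold higher, and Onecut1 (-3.77) and Foxa2 (-1.42), both liver transcription factors, 2-fold lower. In the miR-27b against the saline liver 1 regulator was 2-fold higher, Ppargc1a (1.12), and 3 were lower, Onecut1 (-2.83), Foxa2 (-1.40) and Trib3 (-1.08). With each gene placed at the bottom of its class, a pseudocount of 20 lost the calls of Foxo3 and of Foxa2 and Trib3 in every comparison. Those of Stat3 in miR-27b against siRNC and Ppargc1a in miR-27b against saline were lost too, whereas those of Onecut1 were kept. With a pseudocount of 5 the lower calls of Trib3 were lost (-0.997 and -0.94), and recentring on hepatocyte genes lost that of Stat3 in miR-27b against siRNC (0.91).

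Among hormone receptors and insulin signalling genes 15 of 17 were kept. Gcgr, the glucagon receptor, had a range of 0.14 over the 4 livers. Igfbp1, a secreted binding protein whose transcription insulin lowers, had the widest range, with -1.04 in the naive, 0.83 in the saline, -0.62 with siRNC and 1.88 with miR-27b. The log2 fold was -1.45 for siRNC against saline and 2.50 for miR-27b against siRNC. Both folds share the 1 siRNC library, as do those of G6pc and Pck1 in these comparisons. Irs2, an insulin receptor substrate, had log2 folds of -0.67 and 1.11 in these comparisons. Pik3r1, the regulatory subunit of phosphoinositide 3-kinase, lay the other way, at 1.54 in the first and -1.45 in the second. Irs1 (-1.11) and the adrenergic receptor gene Adra1b (-1.02) were the 2 genes 2-fold lower in the saline than in the naive liver. Both are in the lower level class, as are Igfbp1, Irs2 and Pik3r1. With a pseudocount of 5 neither Irs1 nor Adra1b was 2-fold lower (-0.95 and -0.83). In miR-27b against siRNC the Irs2 fold was then 0.93, and it was 0.99 after recentring on hepatocyte genes. With a pseudocount of 20 the calls of Pik3r1 were lost (0.88 and -0.84), as was that of Igfbp1 in siRNC against saline (-0.93), but not that in miR-27b against siRNC (1.77).

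**Figure D4:**
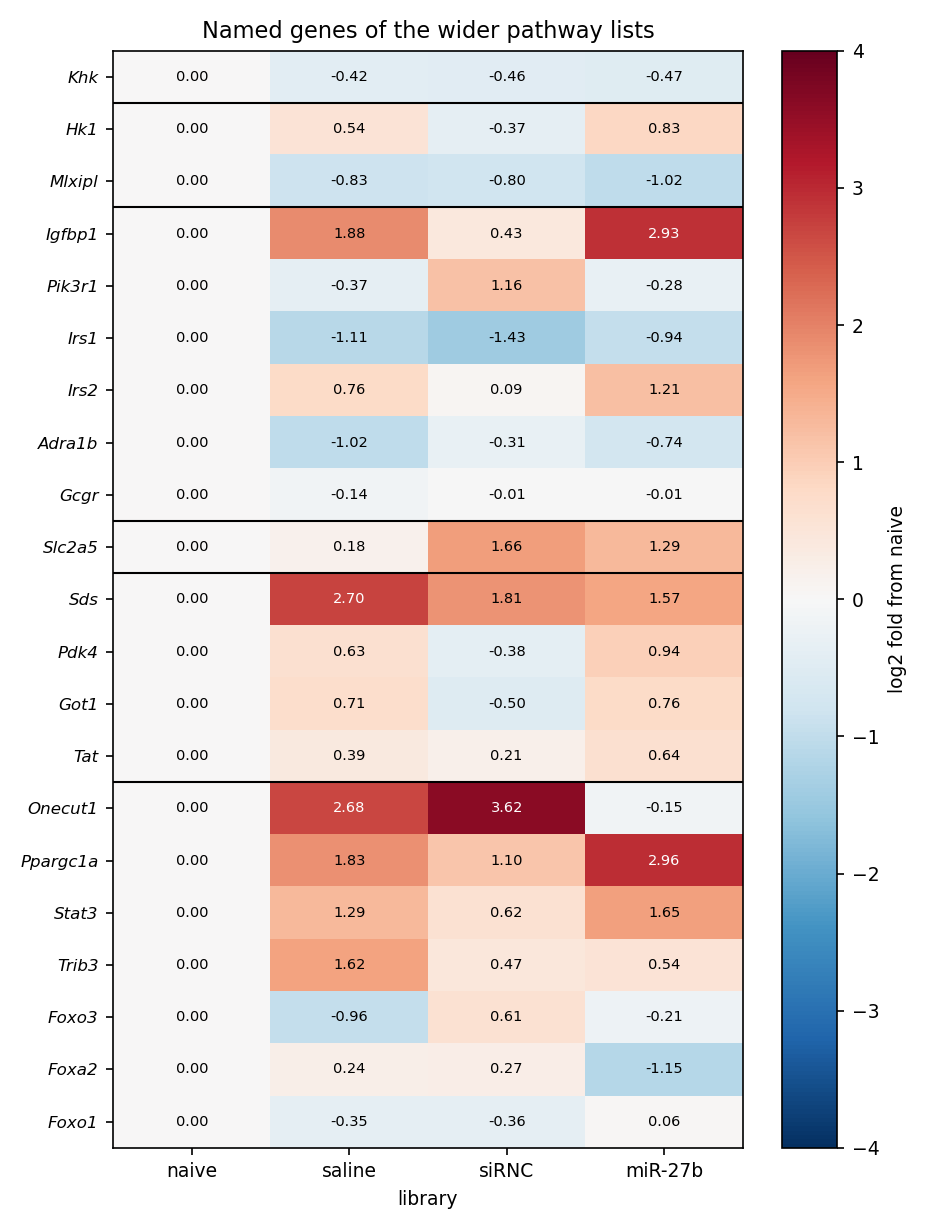
Log2 fold from the naive library for the named genes of the wider lists, grouped by list (lines between groups), 1 column per library with its value printed in each cell. Igfbp1, Irs2, Pdk4 and Got1 are lower in the siRNC than in the saline and miR-27b columns, whereas others, among them Pik3r1, Foxo3 and Onecut1, are higher there.

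Profiles over the 4 libraries, each centred on its own mean, were compared among the 2493 genes of the higher class by their root mean square (RMS) difference on the log2 scale. Nearest to Pck1 were Rai1 (RMS 0.12), Sdc4, which encodes the proteoglycan syndecan 4 (0.13), the mitochondrial carriers Slc25a22 (0.14) and Slc25a47 (0.16), and Pkdcc (0.16). Each of these was lowest in the siRNC liver, which follows from choosing them by likeness to Pck1. Nearest to G6pc were Plin2, which coats lipid droplets (0.35), Clpx (0.41), Rasd1 (0.52), Tmem140 (0.56) and Insig2 (0.60). These distances are wider than those around Pck1. G6pc and Pck1 were 0.66 apart. Of the other members Slc37a4 was nearest to Pck1 (0.44), with Gckr (0.45), Pcx (0.46) and Pklr (0.47) close behind. The RMS difference takes in the width of a profile as well as its shape, and G6pc had a wider range than Pck1 (2.67 against 1.30). The nearness of a nearly flat member such as Slc37a4 is therefore no likeness of shape. With 4 libraries a likeness of profiles is a description of these animals only.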

How the data were processed

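Groups follow the source names, and table columns were matched to samples by title. Poly(A) RNA was prepared with TruSeq, per the labels' protocols, and DESeq (version not stated) and build rn5 appear in the submitters' processing notes. Aligner and counter: not given in the sources used here. Values deposited by the authors are log2 of normalized reads minus a baseline per gene: among the 12874 genes not at 0 throughout, 77.3% have a middle library at exactly 0. Log2 folds are differences of these values with no pseudocount.

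The stored values are single-precision numbers, whose rounding step depends on the size of the number before the baseline was taken off, and this gave the level classes: 2493 genes in the higher and 6361 in the lower (at least 16 normalized reads), in all 8854 kept. Reads up to 200 were searched in steps of 1/101 of a read, with a posterior over 0.9 and at least 1 whole number. On simulated data for siRNC against naive (1500 genes), 97.5% of genes with recovered reads had them right, 93.7% of kept genes had every library at 16 or more, and 90.8% of genes in the higher class had every library above its bottom. Genes with any library under 16 are mostly not kept.

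Members, lists and ratios were chosen with earlier results of these data known. Named genes were all members, kept list genes 2-fold apart in a main comparison (up to the 8 widest of a list), always Ppargc1a, Foxo1, Gcgr, Pdk4, Khk, Sds, Tat, Igfbp1 and Mlxipl, and the 5 nearest profiles of G6pc and Pck1. Some genes that the rule names are not reported here. Alternatives were pseudocounts of 5 and 20, recentring, other level filters, a 1.5-fold threshold and means. Python 3.11.15, numpy 2.4.6 and scipy 1.17.1 were used.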

Additional observations from a re-analysis of the deposited data

How the results depend on the processing

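The 54 log2 folds of members (9 genes, 6 comparisons) stayed inside their counting intervals with pseudocounts of 5 and 20. For this, all members but Pck2 were placed at the bottom of the higher class. Such pseudocounts are small beside that level, so little movement was possible. Recentring on all kept genes left the folds as they were and is no check. After recentring on hepatocyte plasma proteins 53 of the 54 stayed inside, and G6pc in miR-27b against naive moved to -0.58. The median deposited value of these proteins lay at or near the baseline in the naive, saline and siRNC libraries. Folds among those libraries therefore hardly moved, and for them this recentring is no check either. It tests only folds that use the miR-27b library. No member fold of 2-fold or more changed direction, but this recentring turned small folds of Slc37a4 and Slc2a2 in miR-27b against siRNC and of Slc37a4 and Pklr in miR-27b against naive. With a threshold of 1.5-fold, 2 of 9 members were apart in saline against naive and 4 of 9 in siRNC against naive. Of the 8854 kept genes, 1832 and 1759 were. The mean over the members in place of the median was -0.39 for siRNC against saline, 0.49 for miR-27b against siRNC and -0.57 for siRNC against naive. Counts of kept genes at least 2-fold apart depended on the settings. In the order saline against naive, siRNC against saline, miR-27b against siRNC, miR-27b against saline, siRNC against naive and miR-27b against naive, they were 665, 247, 325, 241, 645 and 840. With a pseudocount of 20 they were 246, 81, 122, 77, 229 and 362. Genes were placed at the bottom of their class unless their reads were used, as those of Pck2 were. With a pseudocount of 5 the count was 164 for siRNC against saline and 145 for miR-27b against saline. Without the filter on low levels they were 1942, 1132, 1492, 1311, 1942 and 2424, in the higher level class alone 127, 46, 68, 44, 123 and 183, and at 1.5-fold 1832, 1071, 1246, 1105, 1759 and 2104. Of 60 list medians 13 moved with the mean in place of the median, and of 60 list counts 31 moved with a pseudocount of 20. No paired analysis was possible because each group holds 1 library, and no library could be left out.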

Other observations

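Enzymes of fructose, galactose, polyol and pentose phosphate metabolism were all kept (16 found in the table). None was 2-fold apart in the saline-naive, siRNC-saline, miR-27b-siRNC or miR-27b-saline comparison. Their medians were -0.20, -0.07, 0.05 and 0.23 in that order. In siRNC against naive 2 were 2-fold apart, Rpia (1.19) and Pgls (-1.12), both in the lower level class and named after their values were seen. Khk, the ketohexokinase that starts fructose use, had 0.42 in the naive, 0.00 in the saline, -0.04 with siRNC and -0.05 with miR-27b, and so lay lower in all 3 hepatectomised livers.

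Of 15 other hexose and monocarboxylate transporters, 9 were kept. In the saline-naive, siRNC-saline, miR-27b-siRNC and miR-27b-saline comparisons Slc2a5, the fructose carrier GLUT5, was the 1 gene 2-fold apart. It was 1.48 higher with siRNC and 1.11 higher with miR-27b than in the saline liver, and its values were -1.29 in the naive, -1.11 in the saline, 0.37 with siRNC and 0.00 with miR-27b. The miR-27b call is lost with a pseudocount of 5 (0.93) and the siRNC call with one of 20 (0.89). Slc2a5 is in the lower level class. In siRNC against naive the monocarboxylate carrier gene Slc16a1 was also 2-fold apart (-1.14), named after its value was seen. For Slc2a5, the 2 livers that received cells lay above the 2 that did not. G6pc3, the widely expressed relative of G6pc, was below the filter on low levels, with -0.28 in the naive, 0.44 in the saline, 0.00 with siRNC and 0.37 with miR-27b.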
